A study of Mus musculus with 8 samples.

Results

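The SLAM family genes described here are Slamf1, Slamf7, Slamf8, Slamf9, Cd48, Cd84 and Ly9. They are 7 named rows of a read count table of 23420 features, chosen by name with earlier results of these data known. All 7 passed the filter on low counts, as did 12442 features in all. RNA-seq libraries had been made from mouse dendritic cells, the antigen-presenting cells that carry antigen to T cells, in 4 groups of 2 libraries each. The groups were Gata1 knock-out cells with LPS (KO LPS), Gata1 wild-type cells with LPS (WT LPS), Gata1 knock-out cells at steady state (KO ST) and Gata1 wild-type cells at steady state (WT ST). LPS, lipopolysaccharide, is the bacterial cell wall component that toll-like receptor 4 binds, and steady state means unstimulated. The sources used here do not give strain or age, how Gata1 was deleted or in which cells, the tissue the cells came from, or the dose and duration of LPS. The libraries of a group are called biological replicates, without a statement that they came from separate mice or cultures, so the p-values measure only the spread between these libraries, which may be technical.

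SLAM family receptors are cell-surface proteins of the immunoglobulin superfamily on blood cells. Most bind a second copy of themselves on a neighbouring cell, so that the same molecule is ligand and receptor, while CD48 is held by a lipid anchor and binds the family member CD244 and, in mice, CD2. The tails of SLAMF1, SLAMF7, CD84 and LY9 carry tyrosine switch motifs. Depending on the receptor, these recruit the small adaptors SAP (Sh2d1a), which brings the kinase FYN, or EAT-2 (Sh2d1b1), or else phosphatases. SLAMF8 and SLAMF9 have short tails without these motifs. On dendritic cells and macrophages SLAMF1 also acts as a sensor of bacteria.

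Totals ran from 8005151 to 15495249 counts per library. Gata1 had 0 reads in the 4 KO libraries together, which allows up to 0.0763 CPM (3 reads of their total, counting error only). It had 12 reads in the 4 WT libraries, or 0.259 CPM, of which 10 were in WT ST replicate 2. The WT LPS libraries held 0 and 1 of these reads, so Gata1 reads did not separate the genotypes among the LPS libraries. All 10 dendritic cell markers had reads in every library, but Flt3, a growth factor receptor of dendritic cells, was at 0.452 and 0.306 CPM in KO LPS against 0.926 and 18.7 CPM in WT LPS. Libraries of a group correlated with Pearson's r of 0.954 in KO LPS, 0.910 in WT LPS, 0.981 in KO ST and 0.972 in WT ST (log2 CPM over 12442 genes). The median SD of a gene within a group was 0.355 in KO LPS and 0.463 in WT LPS, against 0.111 in KO ST and 0.196 in WT ST. On the axis of largest variation between libraries (first principal component, 63.5% of variance), the KO LPS libraries lay at 55.9 and 107.7. The WT LPS libraries lay at 99.5 and 23.4, and all steady-state libraries between -75.4 and -68.1. WT ST replicate 2 stood apart in traces of other cells, with a summed neutrophil marker level of 257 CPM against 29.1 CPM in WT ST replicate 1. It also held more of the mast cell and basophil protease genes. Prss34 was at 55.9 CPM, Cpa3 at 16.7 and Mcpt8 at 10.3, against 1.35, 0.869 and 0.193 CPM in WT ST replicate 1. Levels are CPM, read counts scaled to the TMM-adjusted library size, and fold changes are log2 ± SE. A gene was called at an adjusted p under 0.05 in the quasi-likelihood test of edgeR, Benjamini-Hochberg adjusted over all 12442 genes. The test shares the spread of a gene over all 4 groups. Its p-values between the LPS groups therefore rest in part on the steady-state libraries, which varied less.

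All 7 genes lie on chromosome 1 (GENCODE M21 on GRCm38, the assembly of mm10). Ly9 (171588624 to 171607410, minus strand), Slamf7 (171632403 to 171653035, minus), Cd48 (171682009 to 171705258, plus), Slamf1 (171767127 to 171801184, plus) and Cd84 (171839697 to 171890718, plus) follow one another. Slamf9 (172475358 to 172478575, plus) and Slamf8 (172581758 to 172590568, minus) form a second group further along. The libraries do not keep strand, so reads of transcripts that overlap a member, such as the noncoding Gm51686 within Cd84, could not be told apart from its own.

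Promoter windows of 300 bases, from 250 before to 50 after the transcript start, were taken from RefSeq on GRCm38.p6 for 6 of the 7 members, Ly9 being the one without an entry. The windows of Slamf1 and Cd84 are shown because these genes had the most opposed profiles over the libraries. The sequence motifs searched, on both strands, were GATAA, the core bound by GATA factors, an interferon-response type repeat (GAAA, any 2 bases, then GAAA), GGANTTNCC, an NF-kB type site, and GAGGAAGT, a PU.1 type site. Capitals mark a match.
Slamf1 promoter (chr1:171766882-171767181, plus strand): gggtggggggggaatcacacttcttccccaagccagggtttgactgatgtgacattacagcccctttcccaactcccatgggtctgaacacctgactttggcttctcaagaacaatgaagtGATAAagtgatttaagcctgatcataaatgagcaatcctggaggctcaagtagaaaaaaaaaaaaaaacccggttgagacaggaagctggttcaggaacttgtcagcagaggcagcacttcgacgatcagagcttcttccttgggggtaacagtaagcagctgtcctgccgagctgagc
Cd84 promoter (chr1:171839447-171839746, plus strand): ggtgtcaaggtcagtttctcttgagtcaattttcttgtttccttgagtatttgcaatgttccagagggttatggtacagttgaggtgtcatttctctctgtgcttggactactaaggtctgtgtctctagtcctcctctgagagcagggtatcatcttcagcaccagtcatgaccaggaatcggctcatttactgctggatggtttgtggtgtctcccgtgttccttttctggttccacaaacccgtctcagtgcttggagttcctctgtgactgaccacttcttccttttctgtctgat

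The Slamf1 window held GATAA 129 bases before the start, a motif present in 25.4% of 32851 promoter windows of this length. The Cd84 window held none of the motifs searched, and nor did those of Slamf7 and Cd48. The Slamf9 window held GAGGAAGT on the plus strand of the gene 8 bases before the start (3.20% of windows hold that motif). The Slamf8 window held the interferon-response type repeat 15 bases before the start (3.44% of windows) and GGACTTTCC 38 bases after it (3.95%). These are matches of letters and not shown to be bound.

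Slamf1, the founding member and a receptor for itself, was the one member called between genotypes in LPS-treated cells. It was at 4.86 and 1.53 CPM in KO LPS, against 38.7 and 56.8 CPM in WT LPS. At steady state it was at 6.20 and 7.35 CPM in KO ST, against 8.02 and 16.4 CPM in WT ST. Both WT LPS libraries lay above the other 6 libraries, and both KO LPS libraries lay below them. The mean was 3.19 ± 2.35 CPM in KO LPS and 47.8 ± 12.8 CPM in WT LPS (SD, n = 2 each), a log2 fold change of -3.87 ± 0.60 (edgeR adjusted p = 0.0442), or 14.6-fold lower in KO. In these bulk libraries fewer cells that express a gene and less RNA per cell cannot be told apart. The low KO LPS level rests on 43 and 10 reads in the 2 libraries.

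The Slamf1 call was lost without any one of the 4 KO libraries or either WT ST library (edgeR adjusted p between 0.0976 and 0.152). The difference was -4.96 without KO LPS replicate 1 and -3.32 without KO LPS replicate 2. The call was also lost with a fit on only the 4 LPS libraries (edgeR adjusted p = 0.317), where 0 of all genes were called. Upper-quartile scaling ended it too (edgeR adjusted p = 0.0516), with 74 genes called in all. DESeq2 gave -3.88 (adjusted p = 2.0e-08).

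Summed marker levels differed between the same groups. The summed dendritic cell list ran from 4324 to 8552 CPM in KO LPS and from 10717 to 15055 CPM in WT LPS. The median log2 difference of its 10 members was -2.26, against -0.01 for all genes. Of these members, 1 was called lower and 0 higher in KO LPS, where 0.49% of all genes were called lower and 0.281% higher. The summed macrophage list ran from 6220 to 6405 CPM in KO LPS and from 2649 to 5013 CPM in WT LPS. Its median log2 difference was 1.42, with 1 of 12 members called higher and 0 lower, against the same shares of all genes. The mast cell and basophil list ran from 17.3 to 37.7 CPM in KO LPS and from 128 to 272 CPM in WT LPS, with 0 of 5 tested members called. Most of that difference was in Hdc, the histamine-forming enzyme (1.13 and 3.37 CPM in KO LPS, against 130.4 and 17.8 CPM in WT LPS), and Gata2 (10.4 and 27.7 CPM in KO LPS, against 135 and 67.6 CPM in WT LPS). The protease genes of the list were near 0 in all 4 LPS libraries, Cpa3 at most 0.186 CPM and Mcpt8 at most 0.153 CPM. The T and NK cell list summed to at most 5.05 CPM in KO LPS and 12.4 CPM in WT LPS. The stem and progenitor list, cells on which SLAMF1 is a classical marker, ran from 261 to 306 CPM in KO LPS and from 232 to 233 CPM in WT LPS, of which Ly6a alone made up 248 and 293 CPM in KO LPS and 157 and 175 CPM in WT LPS. Its median log2 difference was -2.04, opposite to the sums, with 0 of 5 tested members called. The part of the dendritic cell, macrophage, mast cell and basophil, and stem and progenitor lists in the Slamf1 result was not tested.

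**Figure D1:**
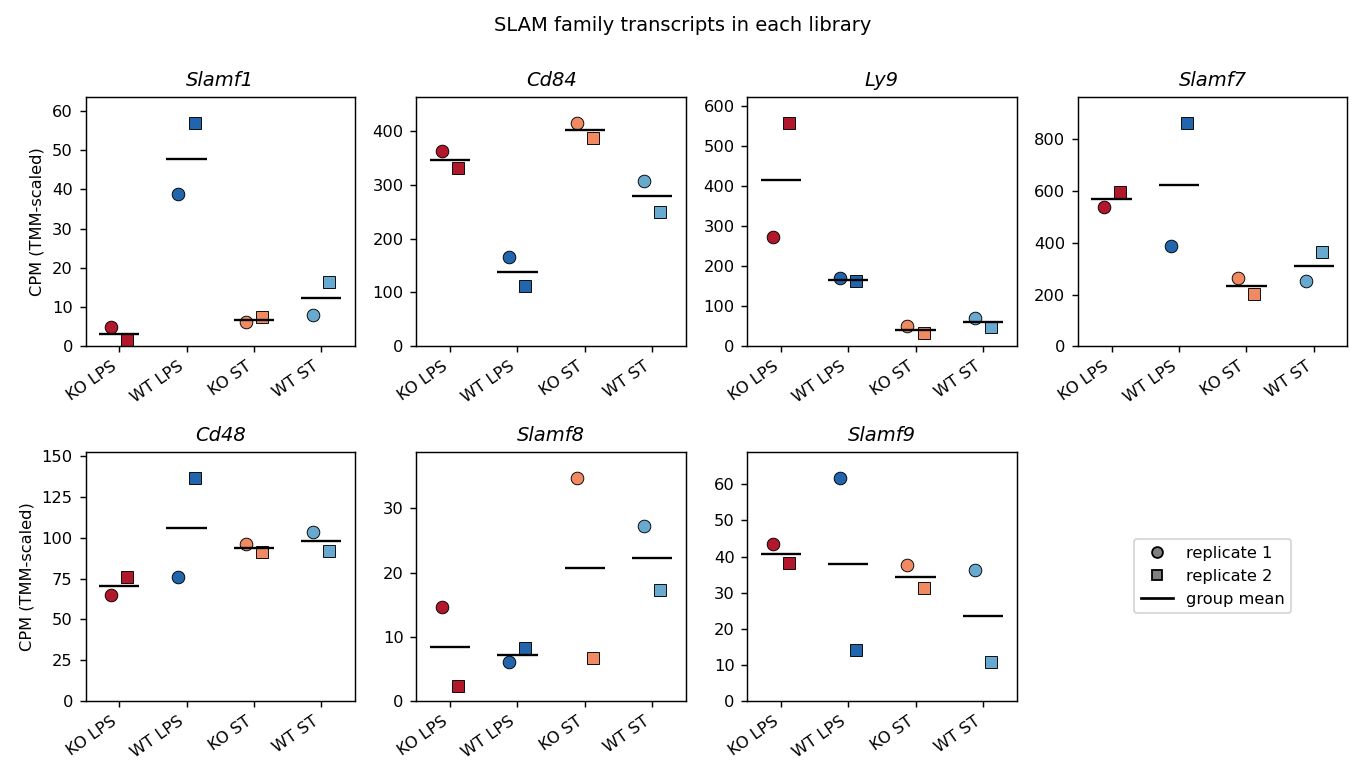
Level of each SLAM family gene (CPM on TMM-scaled sizes, linear axes from 0, a separate scale for each gene) in the 8 libraries; circles are replicate 1, squares replicate 2 and bars the group mean of 2 libraries. Slamf1 is at 38.7 and 56.8 CPM in WT LPS and at most 16.4 CPM elsewhere, and Ly9 is highest in KO LPS.

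Cd84, a self-binding receptor of myeloid and lymphoid cells, and Ly9, also self-binding and with a duplicated extracellular part, stood on the other side. Cd84 was at 362 and 330.4 CPM in KO LPS, against 166 and 111 CPM in WT LPS (346 ± 22.7 and 139 ± 39.1 CPM, SD, n = 2 each). The groups did not overlap, but the log2 difference of 1.32 ± 0.29 missed the threshold (edgeR adjusted p = 0.0887). It passed without WT LPS replicate 1 (1.64, edgeR adjusted p = 0.0307) and with DESeq2 (adjusted p = 0.000925).

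Ly9 was at 273 and 557 CPM in KO LPS, against 170.2 and 163 CPM in WT LPS. Both KO LPS libraries were higher than both WT LPS libraries, and the KO LPS libraries differed from each other by 2.04 times. The log2 difference was 1.32 ± 0.40 (edgeR adjusted p = 0.160; DESeq2 adjusted p = 0.0399), and 0.69 without KO LPS replicate 2.

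The other 4 members gave no call between the genotypes with LPS. Cd48, the lipid-anchored ligand of CD244, was at 65.2 and 75.9 CPM in KO LPS and at 76.04 and 136 CPM in WT LPS. The groups were separated by a narrow gap, and the log2 difference was -0.59 ± 0.30 (edgeR adjusted p = 0.380). Slamf7, a self-binding receptor of NK cells, plasma cells and activated myeloid cells, was at 538 and 598 CPM in KO LPS, inside the range set by 387 and 862 CPM in WT LPS (log2 difference -0.14 ± 0.42, edgeR adjusted p = 0.915). The short-tailed Slamf8, which in mouse macrophages restrains the phagocyte oxidase, was at 14.7 and 2.30 CPM in KO LPS and at 6.08 and 8.23 CPM in WT LPS. The short-tailed Slamf9 was at 43.4 and 38.1 CPM in KO LPS and at 61.6 and 14.04 CPM in WT LPS. For both short-tailed genes the libraries of the genotypes overlapped (log2 differences 0.26 ± 0.93 and 0.12 ± 0.72, edgeR adjusted p = 0.931 and 0.964).

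Thus 0 of the 7 members were higher and 1 was lower in KO LPS than in WT LPS, where 0.772% of all 12442 genes were called, 0.281% higher and 0.49% lower. At an unadjusted p under 0.05 there were 3 members, against 16.9% of all genes. For 4 members, 2 higher and 2 lower, no KO LPS library fell within the WT LPS range, which held for 36.1% of all genes (18% higher and 18.1% lower). The median log2 difference of the members was 0.12, against -0.01 for all genes tested.

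**Figure D2:**
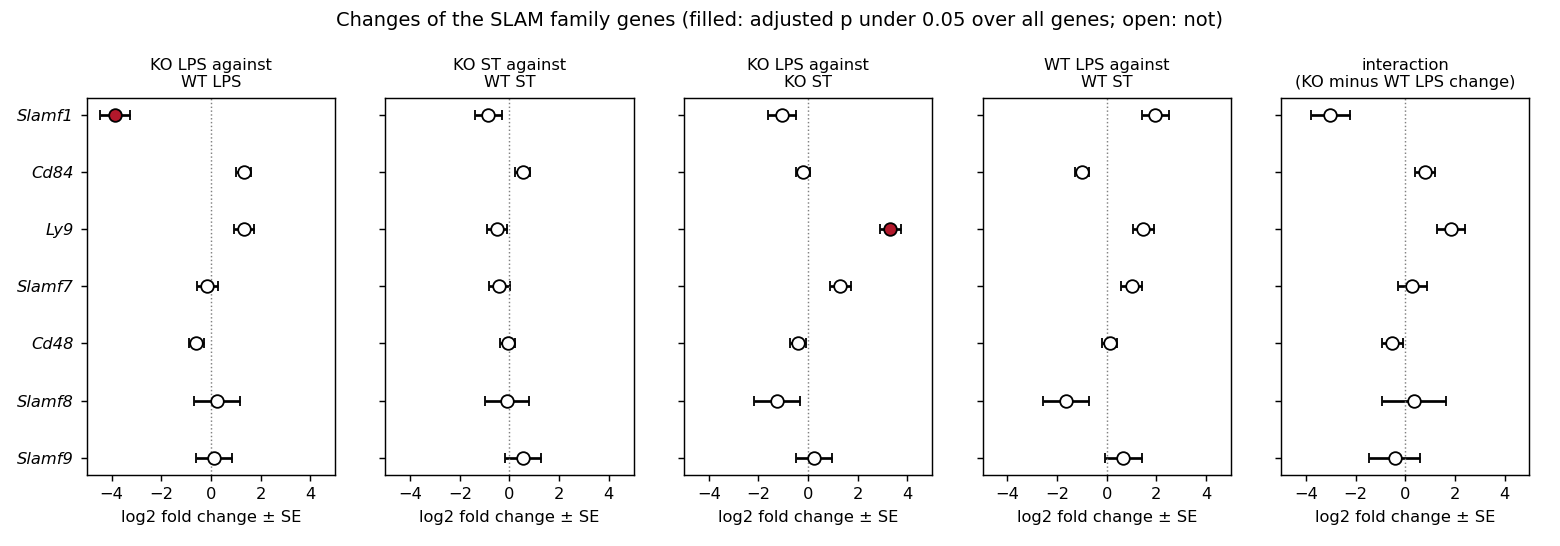
Log2 fold change ± SE of each SLAM family gene in the 4 pairwise comparisons and the interaction, from the fit over all 8 libraries; filled points passed an adjusted p of 0.05 over all genes. The filled points are Slamf1 in KO LPS against WT LPS (-3.87) and Ly9 in KO LPS against KO ST (3.32).

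At steady state no member was called between the genotypes, and 0 reached an unadjusted p under 0.05 (edgeR), against 2.63% of all genes. DESeq2 called 0 members. Of all genes, edgeR called 0 (0%), with 327 at an unadjusted p under 0.05, and DESeq2 called 27. Slamf1 was lower in both KO ST than in both WT ST libraries, with a log2 difference of -0.85 ± 0.54 (edgeR adjusted p = 1). Of the WT ST libraries, replicate 2, the one with more traces of other cells, had the higher Slamf1 level, and without it the log2 difference was -0.25. The part of those traces was not tested. Cd84 was at 414 and 387 CPM in KO ST, against 307 and 249 CPM in WT ST, without overlap (log2 0.53 ± 0.29, edgeR adjusted p = 1; 0.37 without WT ST replicate 2). These were the 2 members whose groups did not overlap, against 45.5% of all genes (22.1% higher and 23.4% lower). Ly9 was at 50.3 and 33.03 CPM in KO ST and at 70.8 and 48.7 CPM in WT ST (log2 -0.52 ± 0.40, edgeR adjusted p = 1). Slamf7 was at 263 and 202 CPM in KO ST and at 254 and 365 CPM in WT ST, and Cd48 at 96.1 and 90.9 CPM in KO ST and at 104 and 92.1 CPM in WT ST. Slamf8 was at 34.7 and 6.73 CPM in KO ST and at 27.2 and 17.3 CPM in WT ST, and Slamf9 at 37.8 and 31.2 CPM in KO ST and at 36.3 and 10.9 CPM in WT ST. The libraries of the genotypes overlapped for these 5 genes.

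Among the listed members, Ly9 had the largest difference between LPS and steady state in knock-out cells. It rose to 415 ± 201 CPM in KO LPS, against 41.6 ± 12.2 CPM in KO ST (SD, n = 2 each), a log2 fold change of 3.32 ± 0.44 (edgeR adjusted p = 0.00690), or 9.96-fold. In wild-type cells Ly9 was at 166 ± 5.24 CPM in WT LPS and 59.7 ± 15.6 CPM in WT ST, without overlap (log2 1.48 ± 0.41, edgeR adjusted p = 0.0757). The Ly9 call in knock-out cells was lost without KO ST replicate 1 (3.65, edgeR adjusted p = 0.0533) or KO ST replicate 2 (3.07, 0.0730), and the change was 2.69 without KO LPS replicate 2. The wild-type difference of Ly9 was 1.24 without WT ST replicate 2, and it passed without KO LPS replicate 2 (edgeR adjusted p = 0.0496) and with DESeq2 (adjusted p = 0.00976). The summed B cell list, cells on which LY9 is abundant, ran from 225 to 456 CPM in KO LPS and 133 to 410 CPM in WT LPS, against 85.8 to 117 CPM in KO ST and 92.6 to 105 CPM in WT ST. Blnk alone made up 179.8 and 422 CPM of it in KO LPS and 392 and 121 CPM in WT LPS, against 74.1 and 48.7 CPM in KO ST and 64.5 and 40.3 CPM in WT ST. The median log2 difference of its 6 tested members was -2.25 in KO LPS against KO ST and -2.26 in WT LPS against WT ST, opposite to the sums, with 0 called in any comparison. Its part in the Ly9 result was not tested.

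Slamf7 stood above its steady-state level with LPS in both genotypes. The 538 and 598 CPM of KO LPS lay above the 263 and 202 CPM of KO ST (log2 1.29 ± 0.42, edgeR adjusted p = 0.0884). The 387 and 862 CPM of WT LPS lay above the 254 and 365 CPM of WT ST, by a margin set by WT LPS replicate 1 (log2 1.01 ± 0.42, edgeR adjusted p = 0.179). In knock-out cells the difference passed without either WT LPS library (edgeR adjusted p = 0.0189 and 0.0183), with the fit on only those 4 libraries (0.0325) and with DESeq2 (adjusted p = 0.0195). In wild-type cells it passed without WT LPS replicate 1 (log2 1.48, edgeR adjusted p = 0.0496) and was 0.32 without WT LPS replicate 2 (0.481). The plasma cell list summed to 640.5 to 675 CPM in KO LPS and 210.0 to 435 CPM in WT LPS, against 240.0 to 468 CPM in KO ST and 242 to 406 CPM in WT ST. Sdc1 alone made up 622 and 650.2 CPM of it in KO LPS. The median log2 difference of its 4 tested members was -2.27 in KO LPS against KO ST, opposite to the sums, with 1 called lower, as were 6.46% of all genes. Its part in the Slamf7 values was not tested.

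Slamf1 had unlike LPS differences in the 2 genotypes. The KO LPS libraries lay below the KO ST libraries (log2 -1.05 ± 0.57, edgeR adjusted p = 0.235). That difference was -2.14 without KO LPS replicate 1 and -0.50 without KO LPS replicate 2. The WT LPS libraries lay above the WT ST libraries (log2 1.96 ± 0.54, edgeR adjusted p = 0.0757). For Slamf1 the wild-type difference was 2.59 without WT ST replicate 2 (edgeR adjusted p = 0.175), and it passed without KO LPS replicate 2 (edgeR adjusted p = 0.0486) and with DESeq2 (adjusted p = 0.00623). Cd84 had the reverse order in wild-type cells, where 166 and 111 CPM in WT LPS lay below 307 and 249 CPM in WT ST (log2 -1.004 ± 0.29, edgeR adjusted p = 0.0825; DESeq2 adjusted p = 0.0124), and the difference was -1.14 without WT ST replicate 2. In knock-out cells Cd84 was 346 ± 22.7 CPM in KO LPS and 401 ± 18.7 CPM in KO ST (SD, n = 2 each; log2 -0.21 ± 0.29, edgeR adjusted p = 0.629).

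Cd48, Slamf8 and Slamf9 had LPS differences of between -1.63 and 0.68 on the log2 scale, none of them called. Cd48 was 70.6 ± 7.61 CPM in KO LPS and 93.5 ± 3.64 CPM in KO ST (SD, n = 2 each; log2 -0.41 ± 0.30, edgeR adjusted p = 0.372). In wild-type cells the WT LPS libraries of Cd48 lay on both sides of the WT ST libraries (log2 0.12 ± 0.30, edgeR adjusted p = 0.825). Slamf8 was at 6.08 and 8.23 CPM in WT LPS, against 27.2 and 17.3 CPM in WT ST (log2 -1.63 ± 0.93, edgeR adjusted p = 0.299). In knock-out cells Slamf8 was at 14.7 and 2.30 CPM in KO LPS and at 34.7 and 6.73 CPM in KO ST, so the groups overlapped. Replicate 1 was 6.39 times replicate 2 in KO LPS and 5.15 times in KO ST. Slamf9 had such a gap in wild-type cells, where replicate 1 was 4.39 times replicate 2 in WT LPS and 3.35 times in WT ST, whose libraries were at 36.3 and 10.9 CPM. In knock-out cells Slamf9 was at 43.4 and 38.1 CPM in KO LPS, against 37.8 and 31.2 CPM in KO ST, with a log2 difference of 0.24 ± 0.72 (edgeR adjusted p = 0.836).

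In all, 1 member was called higher and 0 lower in KO LPS against KO ST, where edgeR called 11.8% of all genes, 5.3% higher and 6.46% lower. At an unadjusted p under 0.05 there were 2 members, against 32.8% of all genes. In WT LPS against WT ST 0 members were called and 4 had an unadjusted p under 0.05. There edgeR called 6.49% of all genes (3% higher and 3.49% lower), and 26.7% had an unadjusted p under 0.05. DESeq2 called 3 members and 1965 genes in all, against 807 genes by edgeR. In knock-out cells LPS and steady-state libraries were apart for 6 members, 3 in each direction, against 72.6% of all genes (34.4% higher and 38.2% lower). In wild-type cells they were apart for 5 members, 3 higher and 2 lower, against 56.6% of all genes (27.5% higher and 29.1% lower). The median log2 difference of the members was -0.21 in knock-out and 0.68 in wild-type cells, against -0.02 and 0.00 for all genes.

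Whether LPS acted differently in the 2 genotypes was tested as an interaction, the LPS change in KO minus that in WT. No member passed (edgeR adjusted p between 0.570 and 1), nor did any of the 12442 genes (0%). Slamf1 had an interaction of -3.02 ± 0.78 (edgeR unadjusted p = 0.00568, adjusted p = 0.570), -4.11 without KO LPS replicate 1 and -2.48 without KO LPS replicate 2. Ly9 had one of 1.84 ± 0.57 (edgeR unadjusted p = 0.0134, adjusted p = 0.631), and 1.20 without KO LPS replicate 2. These were the 2 members at an unadjusted p under 0.05, as were 797 genes in all (6.41%). DESeq2 called the Slamf1 interaction (-3.02, adjusted p = 0.0357) and 110 genes in all. The pairwise comparisons share libraries with one another and with this one.

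Per kilobase of exon (GENCODE exon union), the order of the members changed with LPS. In KO LPS the levels were 125 ± 60.8 CPM per kb for Ly9, 124 ± 9.29 for Slamf7, 59.3 ± 6.40 for Cd48, 55.2 ± 3.62 for Cd84, 31.04 ± 2.83 for Slamf9, 2.76 ± 2.85 for Slamf8 and 0.519 ± 0.382 for Slamf1 (SD, n = 2 each). In WT LPS they were 136 ± 73.4 CPM per kb for Slamf7, 89.3 ± 35.8 for Cd48, 50.3 ± 1.59 for Ly9, 28.8 ± 25.6 for Slamf9, 22.1 ± 6.23 for Cd84, 7.76 ± 2.07 for Slamf1 and 2.32 ± 0.493 for Slamf8. Libraries of neighbours in the order overlapped for Ly9 and Slamf7, for Cd48 and Cd84 and for Slamf8 and Slamf1 in KO LPS. In WT LPS they overlapped for Slamf7 and Cd48 and for Slamf9 and Cd84. At steady state Cd48 came first in both genotypes, at 78.6 ± 3.06 CPM per kb in KO ST and 82.4 ± 6.90 in WT ST, and Slamf1 last, at 1.10 ± 0.132 in KO ST and 1.99 ± 0.967 in WT ST. Neighbours that overlapped at steady state were Ly9 and Slamf8 in KO ST, and Cd48 and Slamf7, Ly9 and Slamf9, and Slamf9 and Slamf8 in WT ST. With the longest transcript as the length, 8 of the 28 ranks moved, and Cd84 came first in KO ST.

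Summed over the 7 genes, the level was 351 and 446 CPM per kb in KO LPS, 282 and 393 in WT LPS, 261 and 219.5 in KO ST and 251 and 228 in WT ST. All 4 LPS libraries were above all 4 steady-state libraries on this scale. With the longest transcript as length WT LPS replicate 1 (338) fell just below KO ST replicate 1 (339), and as a share of all reads the members were at 0.0807% in WT LPS replicate 1, the lowest of the 8 libraries. Ly9 made up 23.5% and 37.8% of that sum in KO LPS and 18.3% and 12.5% in WT LPS, against 5.83% and 4.55% in KO ST and 8.53% and 6.45% in WT ST. Cd84 made up 16.5% and 11.8% in KO LPS and 9.42% and 4.51% in WT LPS, against 25.3% and 28.2% in KO ST and 19.5% and 17.4% in WT ST. Slamf1 made up at most 2.35% in any library. These shares depend on the lengths used.

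**Figure D3:**
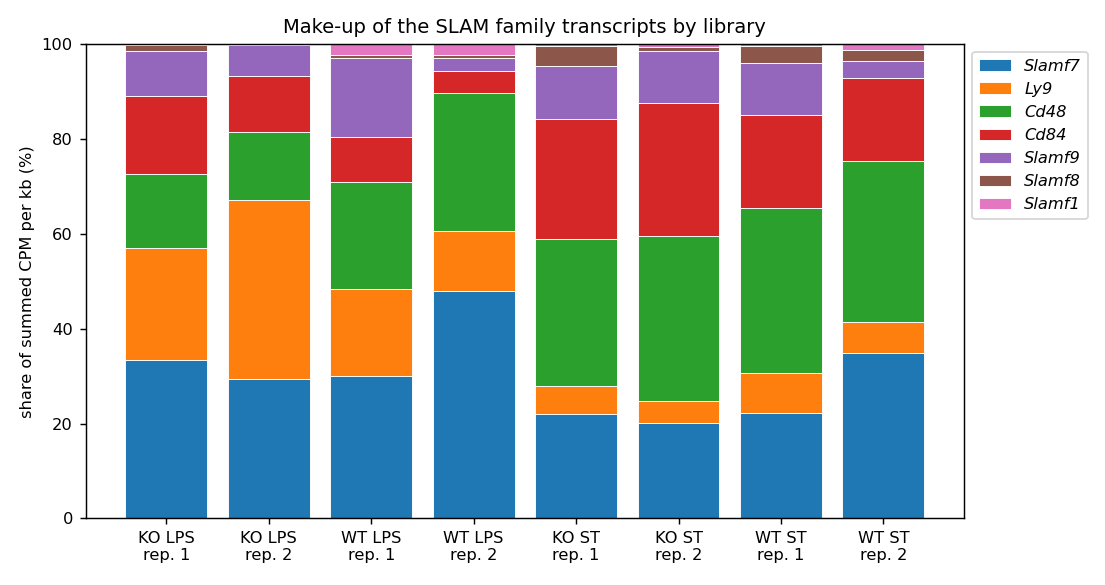
Share of each SLAM family gene in the summed CPM per kb of exon (percent), 1 bar per library, with the 4 LPS libraries on the left and the 4 steady-state libraries on the right. Ly9 takes 23.5% and 37.8% in KO LPS and 4.55% to 5.83% in KO ST.

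Over the 8 libraries the members did not move as 1 block (log2 CPM, Pearson's r, given as a description because the points share groups and libraries). The highest r was 0.782 between Slamf7 and Ly9, whose genes are neighbours, and the lowest was -0.852 between Slamf1 and Cd84, which are neighbours too. Among 8616 other genes whose log2 CPM averaged 3 or more, the profile most like that of Cd84 was that of Csf1r, the receptor of macrophage colony-stimulating factor (r = 0.994), followed by Rasa3, which restrains RAS (0.985). Csf1r was at 1239 CPM in KO LPS and 521 in WT LPS, and at 1405 in KO ST and 990.4 in WT ST (means of 2). For Slamf1 the most alike were Cand1, a regulator of ubiquitin ligases (r = 0.986), and Specc1l, a cytoskeletal protein gene (0.982). For Slamf7 they were Selm, a selenoprotein gene (0.993), and Tapbp, the tapasin gene of MHC class I peptide loading (0.973), and for Ly9 the most alike was Mrpl10 (0.991). For Cd48 they were Ccdc137 (0.961) and Prcc (0.945), for Slamf9 Ftsj1 (0.956) and Ifi202b (0.926), and for Slamf8 Tspan17 (0.911) and Lhpp (0.899). Each is the best of many profiles over few libraries.

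Some members next to each other on chromosome 1 had unlike differences and others had like ones, and differences between genes were not tested. Slamf1, the gene called lower in KO LPS, lies between Cd48 and Cd84, whose differences were -0.59 and 1.32, neither of them called. The neighbours Ly9 and Slamf7 were both higher with LPS in each genotype. Of 29 RefSeq genes within 100 kb of a member, 12 were tested, and 0 were called between the genotypes with LPS (0.772% of all genes) or at steady state (0%). Against KO ST, 1 was higher and 2 were lower in KO LPS, where 11.8% of all genes were called. Against WT ST, 2 were higher and 1 was lower in WT LPS, where 6.49% were called. Slamf6 was called higher in both genotypes and is described with the partner genes. The potassium channel gene Kcnj10 was lower in both, at a mean of 1.96 CPM in KO LPS against 40.03 in KO ST (log2 -4.29 ± 0.88, edgeR adjusted p = 0.0255) and 0.526 in WT LPS against 20.9 in WT ST (log2 -5.02 ± 0.94, 0.0258). Igsf9 was lower in KO LPS (log2 -3.04 ± 0.66, edgeR adjusted p = 0.0300), and Tagln2, an actin-binding protein gene, was higher in WT LPS (log2 1.14 ± 0.26, 0.0481). Without a call, Igsf9 was also lower in WT LPS than in WT ST (log2 -2.27 ± 0.62, edgeR adjusted p = 0.0742). Tagln2 was likewise higher in KO LPS than in KO ST (log2 0.63 ± 0.26, edgeR adjusted p = 0.143). The calls of Kcnj10 in both genotypes and of Igsf9 were lost without either KO ST or either WT ST library, and in knock-out cells also without KO LPS replicate 2. Kcnj10 had 0 reads in WT LPS replicate 1 and 17 in WT LPS replicate 2, and its fitted wild-type change was -10.73 without WT LPS replicate 2. The knock-out change of Kcnj10 was -5.69 without KO LPS replicate 1 and -3.68 without KO LPS replicate 2, and that of Igsf9 was -4.23 and -2.45 without the same libraries. The Tagln2 call was lost without any one library other than WT LPS replicate 2 (highest edgeR adjusted p = 0.264), and with upper-quartile factors (0.0573), no filter (0.0581) and only the groups compared (0.221). The replicate block ended all 4 of these calls (edgeR adjusted p between 0.0547 and 0.104), and a fit on only the groups compared ended that of Kcnj10 in wild-type cells (0.0741).

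**Figure D4:**
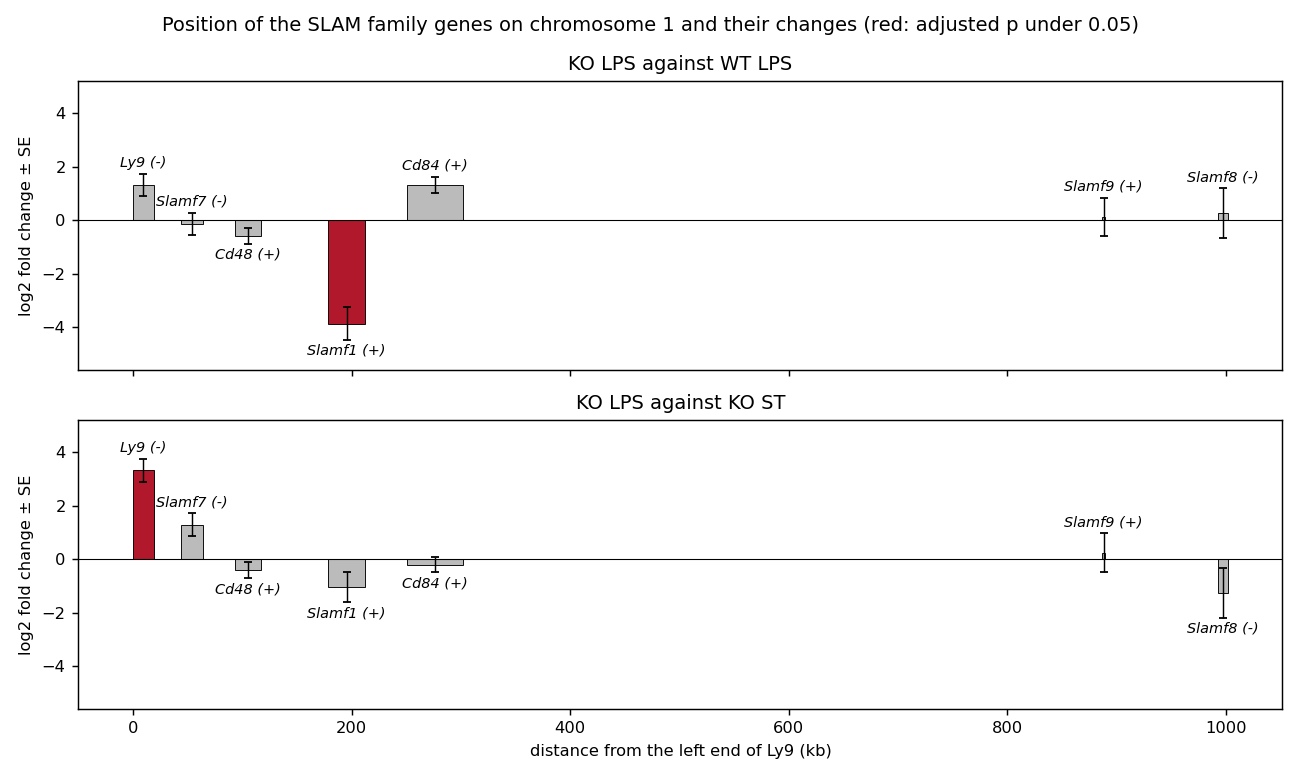
The 7 SLAM family genes drawn to scale along chromosome 1 (distance in kb from the left end of Ly9, strand in brackets), with bar height the log2 fold change and error bars its SE, for KO LPS against WT LPS (top) and KO LPS against KO ST (bottom); red bars passed the adjusted threshold. Slamf1 at -3.87 lies next to Cd84 at 1.32 in the top panel, and Ly9 at 3.32 next to Slamf7 at 1.29 in the bottom panel.

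Of 18 partner and signalling genes of the family, 15 were tested and 5 were called in at least 1 comparison. In KO LPS against WT LPS 0 were higher and 1 was lower, the Src-family kinase gene Fyn, where 0.772% of all genes were called. Fyn was at 23.9 and 13.3 CPM in KO LPS, against 98.7 and 146 CPM in WT LPS (log2 -2.71 ± 0.35, edgeR adjusted p = 0.0344). It also fell in KO LPS against the 107 and 99.8 CPM of KO ST (log2 -2.47 ± 0.35, edgeR adjusted p = 0.00939), and in wild-type cells the WT LPS range enclosed the 102 and 118 CPM of WT ST. The Fyn call between genotypes was lost without any one of the 4 KO or 2 WT ST libraries (edgeR adjusted p between 0.0976 and 0.149), and that in knock-out cells without either KO ST library (highest 0.0642). The call between genotypes was also lost with a fit on only the groups compared (edgeR adjusted p = 0.317), where 0 of all genes were called. The replicate number as a block ended it too (edgeR adjusted p = 0.0864), with 8 genes called in all.

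Sh2d1a, which encodes SAP, had 0 reads in all 8 libraries, which allows up to 0.0350 CPM over them. Sh2d1b1, which encodes EAT-2, was at 2.82 and 0.306 CPM in KO LPS, against 9.52 and 17.6 CPM in WT LPS (log2 -3.05 ± 0.79, edgeR adjusted p = 0.114). It fell in KO LPS against the 19.6 and 10.9 CPM of KO ST (log2 -3.21 ± 0.79, edgeR adjusted p = 0.0427), a call lost without either KO ST or either WT ST library or KO LPS replicate 2 (highest 0.193), with a fit on only the groups compared (0.0515) and with the replicate block (0.0630). KO LPS replicate 2 held 2 reads of Sh2d1b1, and the change was -2.45 without it and -5.59 without KO LPS replicate 1. Without WT LPS replicate 1 the difference between genotypes was also called (edgeR adjusted p = 0.0471), as it was with DESeq2 (adjusted p = 0.00172).

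Slamf6, a self-binding family receptor not among the 7 genes, rose with LPS in both genotypes. It was at 38.3 and 49.6 CPM in KO LPS against 4.03 and 3.98 CPM in KO ST (log2 3.45 ± 0.35, edgeR adjusted p = 0.00339). In wild-type cells it was at 22.3 and 16.6 CPM in WT LPS against 2.32 and 3.57 CPM in WT ST (log2 2.71 ± 0.34, edgeR adjusted p = 0.00796), a call lost without WT ST replicate 1 (0.0838) and with a fit on only the groups compared (0.0556). Between genotypes with LPS its log2 difference was 1.18 ± 0.32 (edgeR adjusted p = 0.125; DESeq2 adjusted p = 0.0304). Ticam2, which encodes the toll-like receptor adaptor TRAM that binds SLAMF1 in human macrophages, rose in KO LPS (149 and 172 CPM) against KO ST (58.01 and 39.6 CPM; log2 1.72 ± 0.26, edgeR adjusted p = 0.0116). That call was lost without either KO ST library or KO LPS replicate 2. In wild-type cells the WT LPS libraries of Ticam2 also lay above the WT ST libraries, without a call (log2 0.94 ± 0.26, edgeR adjusted p = 0.0740).

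Uvrag, part of the VPS34 lipid kinase complex that SLAMF1 joins in mouse macrophages, fell in KO LPS (77.04 and 88.5 CPM) against KO ST (172 and 151 CPM; log2 -0.96 ± 0.23, edgeR adjusted p = 0.0410). The call was lost without any one of the 4 KO or 2 WT ST libraries (highest 0.250), with the replicate block (0.0845) and without the filter (0.0537). In wild-type cells the WT LPS libraries of Uvrag also lay below the WT ST libraries, without a call (log2 -0.83 ± 0.23, edgeR adjusted p = 0.0771). Across the list, KO LPS against KO ST gave 2 higher and 3 lower of 15, against the 11.8% of all genes called. WT LPS against WT ST gave 1 higher and 0 lower, against 6.49%. Cybb, the oxidase subunit and the gene of the list with the highest mean CPM, was at 4342 and 1979 CPM in KO LPS and at 487 and 1525 CPM in WT LPS (log2 1.65 ± 0.60, edgeR adjusted p = 0.225). DESeq2 called it (adjusted p = 0.0445), and leaving out 1 library gave log2 differences from 0.97 (without KO LPS replicate 1) to 2.71 (without WT LPS replicate 2).

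**Figure D5:**
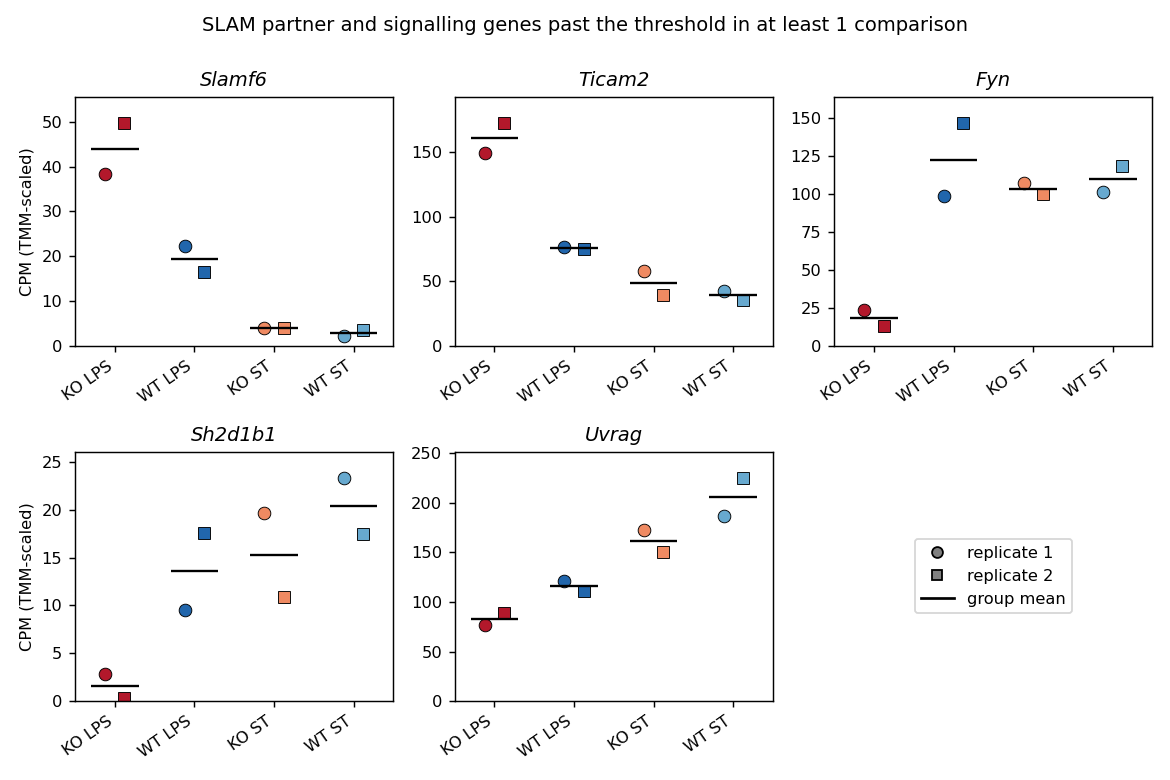
Level (CPM on TMM-scaled sizes, linear axes from 0) of the 5 partner and signalling genes called in at least 1 comparison, in the 8 libraries; circles are replicate 1, squares replicate 2 and bars group means. Fyn is at 23.9 and 13.3 CPM in KO LPS and at 98.7 CPM or more in the other libraries, and Slamf6 is higher in LPS than in steady-state libraries of both genotypes.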

How the data were processed

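The authors deposited a table of raw read counts per gene, whole numbers with 1 column per library. The submitters' processing notes list the build mm10 and, as tools, edgeR 3.6.8, Subread 1.4.3 with featureCounts and TopHat2 2.0.8, with no role for any. Per the labels' protocols the libraries came from the unstranded TruSeq RNA v2 kit. How multiply matching reads were counted, and on which annotation, is not stated. Groups and replicate numbers came from the sample titles.

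Counts were fitted in R 4.3.3 with edgeR 4.0.16 (filterByExpr with a minimum count of 10 and total of 15, TMM factors, quasi-likelihood F test, 1 coefficient per group over all 8 libraries, since 2 libraries a group leave few degrees of freedom). Residual degrees of freedom were 4 and prior ones 3.40. Tests were two-sided and the SE is the size of the log2 fold change over the square root of F. Correlations used log2 CPM with a prior count of 2. The fit was checked on simulated counts. The alternatives for the tests were leaving out each library, RLE or upper-quartile factors, and a CPM filter (at least 1 in 2 libraries) or none. Others were DESeq2 1.42.0, a fit on just the groups compared, a block for the replicate number and a threshold of 0.01. Total counts were used only for the summed level, as a share of all reads, and the longest transcript only as length for levels per kb. The members and gene lists were chosen with earlier results of these data known. Named genes are the members, Gata1, partner genes called or most abundant, the 2 most alike profiles per member and called neighbours within 100 kb; markers beside Slamf1, Ly9 and Slamf7 were named after their values were seen. A gene that the rule names for Ly9 is not reported here. No 2 libraries had identical counts.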

Additional observations from a re-analysis of the deposited data

Results flagged for a closer look

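Slamf1 was singled out because its LPS libraries lay on opposite sides of the steady-state libraries in the 2 genotypes, below them in KO (4.86 and 1.53 CPM in KO LPS, against 6.20 and 7.35 CPM in KO ST) and above them in WT (38.7 and 56.8 CPM in WT LPS, against 8.02 and 16.4 CPM in WT ST). The test of that difference, the interaction, gave -3.02 ± 0.78 and did not pass (edgeR adjusted p = 0.570).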

How the results depend on the processing

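Of 553 member fold changes recomputed, 506 kept their direction and their side of the threshold, 11 lost and 18 gained a call and 18 changed sign, 17 of these with a library left out. No call changed sign. In KO LPS against WT LPS the 1 member called, Slamf1, became 0 with upper-quartile factors, with only the groups compared, with the replicate block and at an adjusted p under 0.01, and 3 with DESeq2 (Slamf1, Cd84 and Ly9); leaving out a library gave 0 to 2. In KO LPS against KO ST the 1 member became 2 with DESeq2 and with only the groups compared (Slamf7 and Ly9), and 0 to 2 with a library left out. In WT LPS against WT ST the 0 members became 2 without the filter (Slamf1 and Ly9) and 3 with DESeq2 (Slamf1, Cd84 and Ly9), and 0 to 2 with a library left out. For the interaction 0 became 1 with DESeq2 (Slamf1), and at steady state 0 stayed 0 in every alternative. Of all genes, DESeq2 called 1044 in KO LPS against WT LPS (edgeR 96) and 2795 in KO LPS against KO ST (1463). In WT LPS against WT ST it called 1965 (807). For KO LPS against WT LPS, edgeR called 74 of all genes with upper-quartile factors and 0 with only the groups compared. It called 8 there with the replicate block and 1 at an adjusted p under 0.01. With only the groups compared it called 2316 in KO LPS against KO ST, and without the filter 1497 in WT LPS against WT ST. With a library left out a group has 1 library, assumed to vary like the others, and the fit has fewer degrees of freedom; the cause of each other change was not tested.

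The sources used here do not say whether libraries with the same replicate number belong together. The correlation of same-numbered deviations between the groups ran from -0.599 (KO LPS and WT LPS) to 0.260 (WT LPS and WT ST). It cannot show whether libraries were paired, because the numbers may have been given differently in each group. With the replicate block Slamf1 was at -3.82 in KO LPS against WT LPS (edgeR adjusted p = 0.105) and Slamf8 changed sign to -0.31. With the KO LPS replicate numbers swapped, a pairing chosen after seeing the data, 2 members were called in WT LPS against WT ST. Of all genes 1285 were called there, against 807 in the main fit.

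The fold changes that changed sign with a library left out were those of Slamf7, Slamf8, Slamf9 and Cd48. In KO LPS against WT LPS they ranged from -0.61 to 0.56 for Slamf7, -1.65 to 1.01 for Slamf8 and -0.59 to 1.53 for Slamf9. In KO ST against WT ST they ranged from -1.72 to 0.63 for Slamf8, -0.087 to 1.66 for Slamf9 and -0.16 to 0.013 for Cd48. Slamf8 ranged from -3.17 to 0.35 in KO LPS against KO ST. In WT LPS against WT ST, Slamf9 ranged from -0.73 to 1.80 and Cd48 from -0.37 to 0.48. The interaction ranged from -0.20 to 0.97 for Slamf7, -1.55 to 1.98 for Slamf8 and -1.53 to 0.98 for Slamf9.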
